A study of Rattus norvegicus with 12 samples.

Results

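TREM2 is a surface receptor of macrophages and microglia that binds lipids, lipoproteins and lipid-laden debris. The genes described here are Trem2, its signalling adaptor Tyrobp (DAP12) and 8 further genes of lipid handling and lysosomes in macrophages: Apoe, Gpnmb, Lgals3, Lpl, Ctsb, Ctsd, Cd9 and Fabp5. They were chosen by gene symbol, and every array probe annotated to one of these 10 symbols was taken. Of the 10 genes, 8 had a probe, 1 each, and these 8 were among the 11695 genes tested across the array. Cd9, a tetraspanin, and Fabp5, a fatty acid binding protein, had no probe in the annotation used and were not analysed here.

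The tumours were gliosarcomas grown in brain from rat 9L cells, 6 with EGFRvIII, a shortened epidermal growth factor receptor that signals without ligand, and 6 with the empty vector (EV). Cells had been transfected with pcDNA3.1(+) and selected with zeocin, and each group came from 1 transfected line, with nothing in the labels on whether it was a single clone. All 12 hosts were syngeneic female Fischer rats of 4 to 6 weeks and 120 to 150 g without treatment. Cells were injected 2 mm deep into the cortex in 10 µL, and whole tumours were removed after 3 weeks, so tumour cells, infiltrating immune cells and adjoining brain were measured together. RNA of each tumour was hybridised to 1 Illumina RatRef-12 bead array.

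In tissue macrophages and microglia, TREM2 pairs with TYROBP, whose phosphorylated tail recruits the kinase SYK. In mice, microglia near plaques, dying cells or demyelinated axons raise a programme that includes Apoe, Lpl, Gpnmb, Lgals3, Cd9 and cathepsin genes and depends in part on Trem2. The same genes are high in lipid-laden macrophages of fat, liver and arteries, and in many macrophages of tumours. Their products include LPL, which frees fatty acids from lipoprotein triglyceride, FABP5, which binds fatty acids, and APOE, which carries lipid out of the cell. Others are the lysosomal proteases CTSB and CTSD.

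A few arrays stood apart before any comparison. The number of probes detected ranged from 11182 to 12719 per array. The upper quartile of the deposited intensities ran from 128.9 to 154.65 in EV and from 98.65 to 121 in EGFRvIII arrays. The groups thus did not overlap in brightness before scaling. A pan-myeloid score, the mean of centred log2 values of 16 tested macrophage and leukocyte genes outside the 10 described here, was -1.82 in EV rat 3 and between -0.37 and 0.41 in the other EV tumours. It ranged from -0.45 to 1.05 in EGFRvIII tumours, where rats 2 and 5 held both values below 0. A brain score over neuron, astrocyte and oligodendrocyte genes was highest in EV rat 2 (2.76) and EGFRvIII rat 1 (1.31).

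Promoter windows are printed here for 3 genes that were higher in EGFRvIII tumours, Ctsd, Gpnmb and Trem2, because each holds a sequence known as a binding site of a lysosomal or macrophage transcription factor. Windows run from 250 bases before to 50 after an annotated start, in the RefSeq table for the rat build GRCr8. Of the 10 genes, 5 had windows (7 windows over Trem2, Apoe, Gpnmb, Ctsd and Cd9). Capitals mark CACGTG in Ctsd (minus strand, chr1:206968772-206969071), TCACATGA and GAGGAAG in Gpnmb (plus strand, chr4:79340878-79341177), and the reverse complement of GAGGAAG in Trem2 (minus strand, chr9:20151730-20152029).
Ctsd: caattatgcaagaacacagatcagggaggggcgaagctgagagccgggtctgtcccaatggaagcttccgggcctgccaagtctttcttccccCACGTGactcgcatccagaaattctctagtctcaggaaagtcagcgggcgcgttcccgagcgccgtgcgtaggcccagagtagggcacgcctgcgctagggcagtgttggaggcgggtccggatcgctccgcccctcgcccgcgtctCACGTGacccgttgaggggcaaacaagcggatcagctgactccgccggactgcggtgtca
Gpnmb: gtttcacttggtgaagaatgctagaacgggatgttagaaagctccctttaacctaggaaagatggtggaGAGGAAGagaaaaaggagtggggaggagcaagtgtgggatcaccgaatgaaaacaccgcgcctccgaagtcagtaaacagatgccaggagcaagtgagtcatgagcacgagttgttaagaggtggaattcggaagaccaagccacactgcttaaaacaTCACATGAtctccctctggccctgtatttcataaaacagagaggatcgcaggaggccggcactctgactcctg
Trem2: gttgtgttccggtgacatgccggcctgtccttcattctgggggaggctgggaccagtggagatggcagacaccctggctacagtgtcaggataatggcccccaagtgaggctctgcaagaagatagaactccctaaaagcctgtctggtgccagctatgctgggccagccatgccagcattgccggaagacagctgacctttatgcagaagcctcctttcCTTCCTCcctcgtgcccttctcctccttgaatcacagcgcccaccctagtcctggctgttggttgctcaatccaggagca

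Both strands of 33469 promoter windows of the same length were searched. CACGTG is the core of the element read by TFEB and related lysosomal regulators. It stood at -157 and -10 from the Ctsd start, in no window of the other 4 genes, and in 6.42% of all windows. TCACATGA, a form of the site bound by MITF-family factors, stood at -23 in Gpnmb and in 1.16% of all windows. GAGGAAG, the purine-rich core bound by the myeloid factor PU.1, was found at -181 in Gpnmb, at -30 in Trem2 and at -224 in Cd9, and in 12.4% of all windows. The DR4 repeat of liver X receptors, searched as 1 exact spelling, was in 0 of these 7 windows and in 0.00598% of all windows. No motif matches overlapped in these windows, and a match describes the letters only.

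Across all 8 measured genes, 4 were higher in EGFRvIII tumours (Trem2, Lgals3, Gpnmb and Ctsd), 0 were lower, and 4 did not pass the test (Tyrobp, Apoe, Lpl and Ctsb). At an unadjusted p under 0.05, 5 were higher and 0 lower. A gene was called where limma gave a p, adjusted by Benjamini-Hochberg across all 11695 genes, under 0.05. Of these genes, 11.1% were called higher and 10.4% lower, 21.5% in all. For 3 of the 8 genes the groups did not overlap, against 11.1% of all genes. The median change, EGFRvIII minus EV, was 1.00 on the log2 scale over the 8 genes and 0.01 over all genes tested. All 8 probes were detected on all 12 arrays. Another scaling moved the balance of calls over the array. Of all called genes, 51.6% were higher with quantile normalization, 29.9% when arrays were scaled to the median of all probes, and 68.2% when scaled to the median of the kept probes, while the 4 genes were called higher under each.

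**Figure D1:**
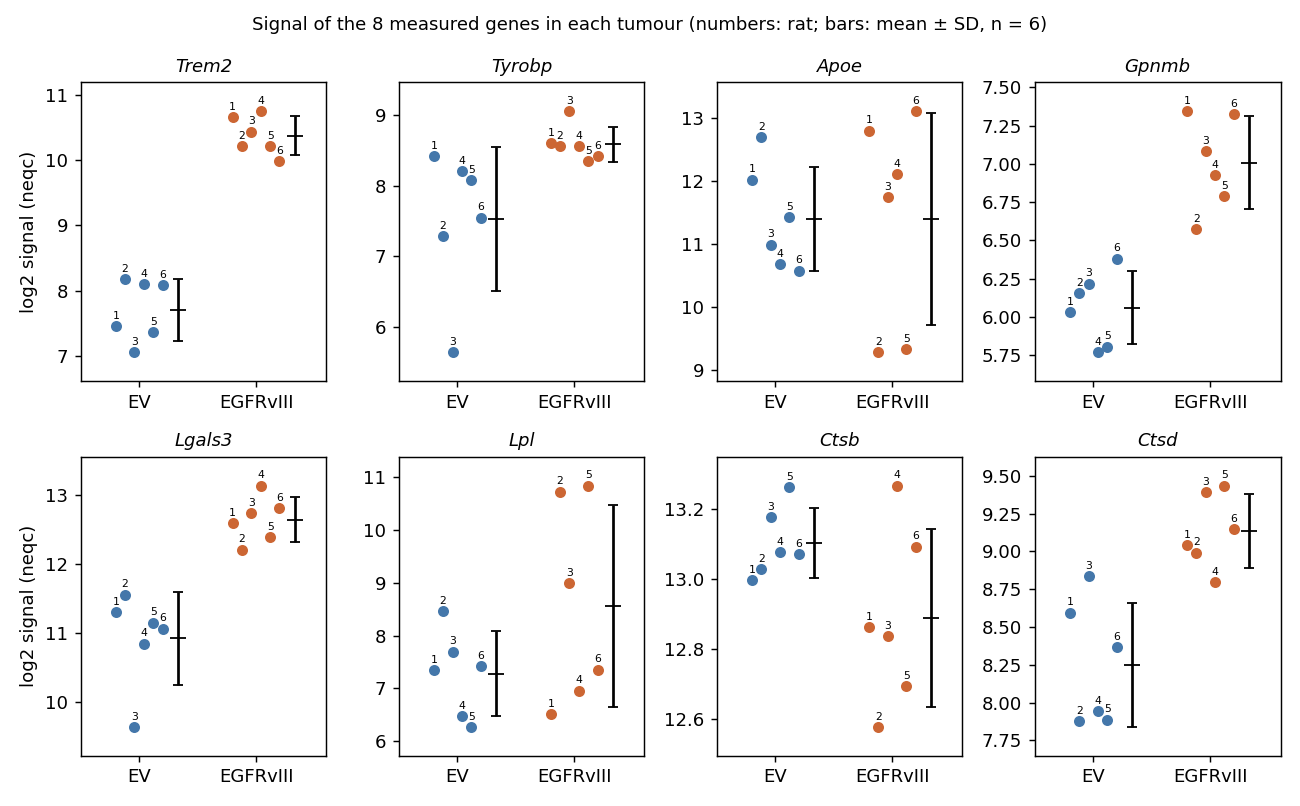
Background-corrected, quantile-normalized log2 signal of the 8 measured genes (vertical axes, 1 panel per gene with its own scale) in 6 EV and 6 EGFRvIII tumours. Points are tumours labelled by rat number, and bars are mean ± SD (n = 6). The groups are separate for Trem2, Gpnmb and Lgals3, and the EGFRvIII tumours spread widely for Apoe and Lpl.

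Trem2 was higher in every EGFRvIII tumour than in any EV tumour. Its log2 signal had a lowest value of 7.05, a median of 7.77 and a highest value of 8.18 in EV tumours, and 9.98, 10.33 and 10.75 in EGFRvIII tumours. The gap between the highest EV and the lowest EGFRvIII tumour was 1.81. On the background-subtracted intensity scale as deposited, the probe read 229 ± 79.6 in EV and 1251 ± 329 in EGFRvIII tumours (SD, n = 6 each). The change was 2.67 ± 0.21 (log2, SE), 6.37-fold, with a limma adjusted p of 3.5e-06. Ordered from the largest increase to the largest decrease it ranked 20 of the 11695 genes, and 17 by adjusted p. In whole tumours, more cells of a type and more RNA per cell cannot be told apart, here and for every gene below. The gene lies on rat chromosome 9 at chr9:20145215-20151797 in GRCr8.

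The level of Trem2 was set against the pan-myeloid genes. Within groups its r with the score was 0.382 in EV (exact permutation p = 0.551, rho = -0.029) and 0.066 in EGFRvIII tumours (exact p = 0.881, rho = 0.029). Without the 2 tumours farthest from the median score, which left few, r was -0.769 in EV and -0.912 in EGFRvIII tumours. The probe value was 7.05 in EV rat 3, whose pan-myeloid score was lowest, and 7.37 in EV rat 5, whose score was 0.26. In EGFRvIII rat 6, with the highest score, Trem2 was at its lowest value of that group, 9.98. With the pan-myeloid score as a covariate the Trem2 change was 2.58 ± 0.22 (limma adjusted p = 1.5e-05), and without EV rats 2 and 3 it was 2.63 ± 0.19. Of 20 pan-myeloid genes, 16 were tested (Itgb2, Csf1r, Cd68 and Lyz2 had no probe), and 2 were higher, 0 lower and 14 not called, with 11.1% of all genes called higher. Their median change was 0.46, which was 0.12 without EV rat 3, 0.26 without EGFRvIII rat 6 and 0.73 without EGFRvIII rat 2. The called genes were Spi1, which encodes PU.1 (1.08 ± 0.29), a call lost in 3 of 27 alternatives (with the pan-myeloid score as a covariate, without EV rats 2 and 3, and without those and EGFRvIII rat 1), and Cd14, the endotoxin co-receptor (0.94 ± 0.21). The mean log2 level of the 16 genes ran from 7.32 to 9.55 in EV and from 8.69 to 10.19 in EGFRvIII tumours, and each of the 16 was detected in at least 4 of 6 tumours of either group.

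Tyrobp, the adaptor through which TREM2 signals, was not called. Its log2 signal had a lowest value of 5.63, a median of 7.81 and a highest value of 8.42 in EV tumours, against 8.35, 8.56 and 9.05 in EGFRvIII tumours. EV rat 3 was far below the rest, and EV rat 1 lay above EGFRvIII rats 5 and 6 in a narrow overlap. On the deposited intensity scale the overlap was wider, with EV rat 1 (384.1) above all EGFRvIII tumours except rat 3 (494.1). The log2 change was 1.06 ± 0.38 with a limma adjusted p of 0.0598. The call depended on single EV tumours: the adjusted p was 0.0333 without rat 1, 0.0333 without rat 3 and 0.0473 without rat 4. Without rat 3 the change was 0.68 ± 0.20, and with the pan-myeloid score as a covariate it was 0.56 ± 0.25 (limma adjusted p = 0.145). In EV tumours Tyrobp followed that score with r = 0.992 (exact permutation p = 0.00417, or 0.133 after adjustment over 32 relations, n = 6) and rho = 0.943 (exact p = 0.0167), and r was 0.931 with the 2 most distant tumours left out. Across the 6 EGFRvIII tumours the r of Tyrobp with the score was 0.188 (exact permutation p = 0.764) and rho was -0.086. Without the 2 most distant of them r was -0.517. The gene lies on chromosome 1 at chr1:94800372-94804307.

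Among partners and signalling genes of TREM2, Trem1, Syk and Lyn rose. Of 18 tested, 5 were higher, 0 were lower and 13 were not called, beside 11.1% of all genes called higher and 10.4% lower. The median change of the 18 was 0.60. Over the alternative analyses 3 to 6 were called higher and 0 to 2 lower. The median was 0.29 without EV rat 3 and 0.17 with the pan-myeloid score as a covariate. Trem1, a related receptor that uses the same adaptor and amplifies inflammatory responses, had a lowest log2 signal of 4.40, a median of 4.76 and a highest of 5.73 in EV tumours and was detected in 4 of them. In EGFRvIII tumours its values were 7.29, 7.56 and 8.09, and it rose by 2.79 ± 0.22 (6.92-fold, limma adjusted p = 4.6e-06). The size of that change ran from 1.90 to 4.23 over the alternatives. Kinases of this pathway also rose: Syk, which binds phosphorylated TYROBP, by 0.97 ± 0.19, and Lyn, a SRC-family kinase, by 0.80 ± 0.16. Btk was called at 0.99 ± 0.33, but its call was lost in 17 of 27 alternatives, and in 8 of 12 analyses that left out 1 array. Hcst (DAP10), the other adaptor of TREM2, was not called (0.26 ± 0.38), nor was the phospholipase Plcg2 (0.74 ± 0.38) or Ms4a4a, a four-pass membrane protein linked to soluble TREM2 in humans (1.77 ± 0.65, limma adjusted p = 0.0658). The sheddase genes Adam10 (-0.49 ± 0.17) and Adam17 (0.05 ± 0.12) were not called.

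Apoe, which encodes the apolipoprotein that carries cholesterol and phospholipid out of macrophages and astrocytes and is also a TREM2 ligand, had nearly equal means in both groups and a wide spread between tumours. Its log2 signal had a lowest value of 10.58, a median of 11.21 and a highest value of 12.70 in EV tumours, and 9.28, 11.93 and 13.11 in EGFRvIII tumours. EGFRvIII rats 2 (9.28) and 5 (9.33) were below all EV tumours, and rats 1 (12.80) and 6 (13.11) were above all of them. The change was -0.00 ± 0.66 (limma adjusted p = 0.997). The EGFRvIII tumours spanned a 14.3-fold range and the EV tumours 4.35-fold. The SD of Apoe within EGFRvIII tumours was at percentile 99.8 of all genes tested. The gene lies at chr1:88481889-88485816.

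Lpl encodes the lipoprotein lipase that frees fatty acids from lipoprotein triglyceride. Its log2 signal had a lowest value of 6.28, a median of 7.39 and a highest value of 8.47 in EV tumours, and 6.51, 8.18 and 10.84 in EGFRvIII tumours. EGFRvIII rats 2 (10.73), 3 (8.99) and 5 (10.84) were above all EV tumours, and rats 1 (6.51), 4 (6.96) and 6 (7.36) were within the EV range. The change of 1.28 ± 0.73 did not pass the test (limma adjusted p = 0.234). The range was 20.1-fold in EGFRvIII and 4.58-fold in EV tumours, and the SD in EGFRvIII tumours was at percentile 99.9 of all genes. Lpl passed the threshold in 1 of 27 alternatives, with array weights (2.11 ± 0.70, limma adjusted p = 0.0384). The gene lies at chr16:25596205-25621928.

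The 2 tumours highest in Lpl were the 2 lowest in Apoe. Across the 6 EGFRvIII tumours the genes ran opposite with r = -0.942 (exact permutation p = 0.0111, or 0.311 after adjustment over 56 relations) and rho = -0.771 (exact p = 0.103). The relation rested in large part on rats 2 and 5, which stood apart from the other 4: with the 2 tumours most distant from the median Apoe value left out, r was -0.647. Across the 6 EV tumours r was 0.553, and whether the groups differ was not tested. In EGFRvIII rats 2 and 5 the pan-myeloid score was also lowest (-0.45 and -0.31), and its part in the pattern was not tested.

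**Figure D2:**
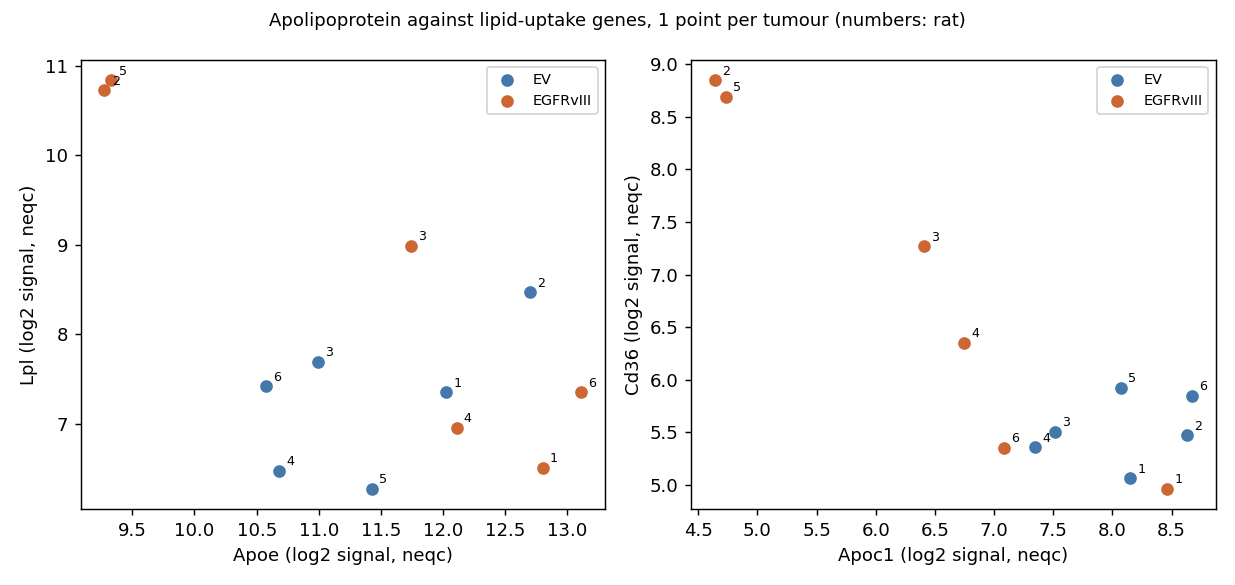
Log2 signal of Lpl against Apoe (left) and of the fatty acid receptor Cd36 against the apolipoprotein Apoc1 (right), 1 point per tumour, labelled by rat number and coloured by group. EGFRvIII rats 2 and 5 lie at the upper left in both panels, with Lpl at 10.73 and 10.84 and Cd36 at 8.85 and 8.69.

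Other lipoprotein and cholesterol efflux genes were called in both directions. Of 18 tested, 2 were higher, 5 were lower and 11 were not called, beside 21.5% of all genes called, with a median change of 0.01. Apoc1, an apolipoprotein gene next to Apoe in mammals, ran from 7.35 to 8.67 in EV tumours. In EGFRvIII tumours it ranged from 4.64 in rat 2 and 4.73 in rat 5 to 8.46 in rat 1, and it was detected in 4 of 6. It was called lower (-1.72 ± 0.55, limma adjusted p = 0.0406), and the call was lost in 14 of 27 alternatives, including without EGFRvIII rat 2, 3, 4 or 5 and without EV rat 1, 2, 5 or 6. The cholesterol exporter Abca1 was called lower (-1.06 ± 0.36) and the cholesterol 25-hydroxylase Ch25h higher (1.50 ± 0.47), and these calls were lost in 16 and 14 of 27 alternatives. Mylip, which marks lipoprotein receptors for degradation, fell by 0.90 ± 0.22, and its call was lost in 1. The number called lower in this list was between 1 and 5 over the alternatives and was 1 without EV rats 2 and 3.

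Genes of fatty acid uptake and storage were called in both directions. Of 21 tested, 6 were higher, 3 lower and 12 not called, beside 11.1% of all genes called higher and 10.4% lower. The median change of the 21 was 0.12. The median was 0.0085 without EV rat 1, 0.32 without EV rat 2 and 0.078 without EV rat 6. Olr1, a scavenger receptor for oxidised lipoprotein, rose by 1.84 ± 0.32 (3.59-fold, limma adjusted p = 0.00148). Dgat2, which completes triglyceride synthesis, rose by 1.36 ± 0.33. Fabp4, the fatty acid binding protein of fat cells and macrophages, was above background in 2 of 6 EV tumours and in 5 of 6 with EGFRvIII, and rose by 1.71 ± 0.33. The size of its change ran from 1.03 to 3.09 over the 26 alternatives that tested it. Its values ran from 6.16 to 6.98 in EGFRvIII rats 2 to 6, while rat 1 (4.60) stayed among the EV values. Cpt1a, which admits long-chain fatty acids to mitochondria, fell by 1.14 ± 0.19 (limma adjusted p = 0.00103). Plin2, the coat protein of lipid droplets, rose by 0.63 ± 0.18, and its call was lost in 3 of 27 alternatives, 1 of them without EGFRvIII rat 4. The fatty acid receptor Cd36 was not called (1.39 ± 0.59, limma adjusted p = 0.115): EV tumours lay between 5.06 and 5.93, and EGFRvIII tumours between 4.96 in rat 1 and 8.85 in rat 2. Of the 2 fat cell markers tested, Cfd fell by 1.28 ± 0.12 and Cidec was not called (0.07 ± 0.11). Adipoq, Lep and Retn were below the detection filter, and Plin1 had no probe.

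Of the lysosomal proteases measured here, Ctsd was called higher and Ctsb was not called. For Ctsd, which encodes the aspartic protease cathepsin D, the lowest, median and highest log2 signals were 7.88, 8.15 and 8.83 in EV tumours and 8.80, 9.09 and 9.43 in EGFRvIII tumours. The groups overlapped by a narrow margin, since EGFRvIII rat 4 (8.80) lay just below EV rat 3 (8.83). On the deposited intensity scale the overlap was wider, with EV rats 1 (432.7) and 3 (452.4) above EGFRvIII rats 1 (420) and 4 (423.2). Ctsd rose by 0.88 ± 0.18 (1.84-fold, limma adjusted p = 0.00397). Ctsb, the cysteine protease cathepsin B, had values of 12.996, 13.07 and 13.26 in EV and 12.58, 12.85 and 13.27 in EGFRvIII tumours. EGFRvIII rats 1 (12.86), 2 (12.58), 3 (12.84) and 5 (12.69) were below all EV tumours, while rats 4 (13.27) and 6 (13.09) were not. The change was -0.21 ± 0.11 (limma adjusted p = 0.179). The genes lie at chr1:206956945-206968821 and chr15:41565607-41586479.

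Gpnmb encodes a lysosomal and cell surface glycoprotein that lipid-laden macrophages make. Its log2 signal had a lowest value of 5.77, a median of 6.10 and a highest value of 6.38 in EV tumours, and 6.58, 7.004 and 7.34 in EGFRvIII tumours. All EGFRvIII tumours were above all EV tumours, by a gap of 0.19. On the deposited intensity scale the groups overlapped, with EGFRvIII rat 2 (68.6) below EV rat 2 (71.6). Gpnmb rose by 0.95 ± 0.16 (1.93-fold, limma adjusted p = 0.00129). It lies at chr4:79341128-79362366.

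Other lysosomal genes gave calls in both directions. Of 32 tested, 2 were higher, 5 lower and 25 not called, beside 21.5% of all genes called, with a median change of -0.02. Leaving out 1 array gave 1 to 3 higher and 4 or 5 lower. Of the membrane protein genes, Scarb2 rose by 0.66 ± 0.15. Cd63 was called at 0.24 ± 0.08, but its call was lost in 19 of 27 alternatives, 10 of them leaving out 1 array. The glucuronidase Gusb fell by 0.96 ± 0.16, the peptidase Tpp1 by 0.78 ± 0.14 and the cysteine protease inhibitor Cst3 by 0.80 ± 0.22. The call of the aspartic protease Ctse (-0.96 ± 0.30) was lost in 12 of 27 alternatives, 10 of them leaving out 1 array. The split moved with scaling, from 1 higher and 8 lower with arrays scaled to the median of all probes to 6 higher and 4 lower with the median of the kept probes.

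Lgals3 encodes galectin-3, a sugar-binding protein that is secreted by macrophages and is recruited to damaged lysosomes. Its log2 signal had a lowest value of 9.64, a median of 11.11 and a highest value of 11.56 in EV tumours, and 12.21, 12.67 and 13.14 in EGFRvIII tumours. The groups did not overlap, with a gap of 0.65, and EV rat 3 was well below the other EV tumours. Lgals3 rose by 1.72 ± 0.27 (3.30-fold, limma adjusted p = 6.8e-04). With the pan-myeloid score as a covariate the change was 1.36 ± 0.18 (limma adjusted p = 3.3e-04). Of 6 related genes tested, 5 galectins and the galectin-3 binding protein gene, 0 were called in either direction by limma and 1 had an unadjusted p under 0.05 (Lgals9, -0.48 ± 0.18), with a median change of 0.08. Over all genes, 21.5% were called. The difference was 0.09 ± 0.06 for Lgals1 and 0.16 ± 0.26 for the galectin-3 binding protein gene Lgals3bp. The Lgals3 gene lies at chr15:23099795-23111731.

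Cd9 itself was not measured here. Of 18 other tetraspanin genes tested, 1 was called higher (Cd63, whose call was lost in 19 of 27 alternatives), 4 were lower and 13 were not called. Over all genes, 11.1% were called higher and 10.4% lower. The median change of the 18 was -0.15. The genes that fell were Tspan8 (-1.63 ± 0.34), Tspan1 (-1.27 ± 0.14), Tspan12 (-1.18 ± 0.20) and Tspan5 (-1.13 ± 0.25). Tspan1 was detected in 3 of 6 EGFRvIII tumours, and its change ran from -2.22 to -0.72 over the alternatives.

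Genes of the disease-associated microglia programme outside the 10 named above were mostly higher. Of 20 tested, 13 were higher, 0 lower and 7 not called, beside 11.1% of all genes called higher and 10.4% lower. The median change was 0.74 against 0.01 over all genes. The number called higher was between 9 and 17 over the alternatives and 11 without EV rats 2 and 3. Cd300lf, a lipid-binding inhibitory receptor, rose by 1.85 ± 0.33 (3.60-fold), and the fungal sugar receptor Clec7a by 1.62 ± 0.34 (3.08-fold). Spp1, which encodes the secreted phosphoprotein osteopontin, rose by 1.26 ± 0.28, and the adhesion gene Cadm1 by 1.15 ± 0.19. Cst7, an inhibitor of cysteine proteases, was not called (0.35 ± 0.78) and neither was the chemokine gene Ccl6 (2.48 ± 0.87, limma adjusted p = 0.0569). Which cells of these whole tumours, tumour cells included, made the RNA of these genes was not tested.

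Of the resident microglia markers, Olfml3 and Sall1 fell. Of 6 tested, 0 were higher, 2 lower and 4 not called, while 11.1% of all genes were called higher and 10.4% lower, with a median change of -0.36. Olfml3 fell by 0.72 ± 0.16 and the microglial transcription factor Sall1 by 0.51 ± 0.13, while P2ry12 (-0.13 ± 0.28) and Tmem119 (-0.44 ± 0.17) were not called. Their mean log2 level ran from 6.47 to 7.22 in EV and from 6.42 to 6.94 in EGFRvIII tumours.

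Markers of further cell types in these tumours were as follows, and their part in the results was not tested. Their counts stand beside 11.1% of all genes called higher and 10.4% lower. Of 10 endothelial genes, 6 were lower and 0 higher, among them Slco1c1 (-1.89 ± 0.42), Plvap (-1.52 ± 0.41), Cldn5 (-1.18 ± 0.27) and Emcn (-1.08 ± 0.28). Of 8 fibroblast and meningeal genes, 5 were lower, including Mgp (-1.56 ± 0.39), Ogn (-1.46 ± 0.36) and Col3a1 (-1.30 ± 0.40), and 1 was higher, Dpt (1.94 ± 0.35). The Col3a1 call was lost in 10 of 27 alternatives. Of 8 astrocyte genes, Gja1 fell by 0.81 ± 0.08 and 7 were not called. Of 9 neuron, 7 oligodendrocyte and 9 T and NK cell genes, 0 were called by limma, and 0 had an unadjusted p under 0.05. Of 3 neutrophil genes above the detection filter, S100a8 was higher (1.66 ± 0.50), a call lost in 8 of 27 alternatives, and 5 others, S100a9 and Elane among them, were below it. Where a list had 0 limma calls in 1 direction, 0 of its genes had an unadjusted p under 0.05 in that direction, except Adam10 among TREM2 partners and Lgals9 among galectins.

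**Figure D3:**
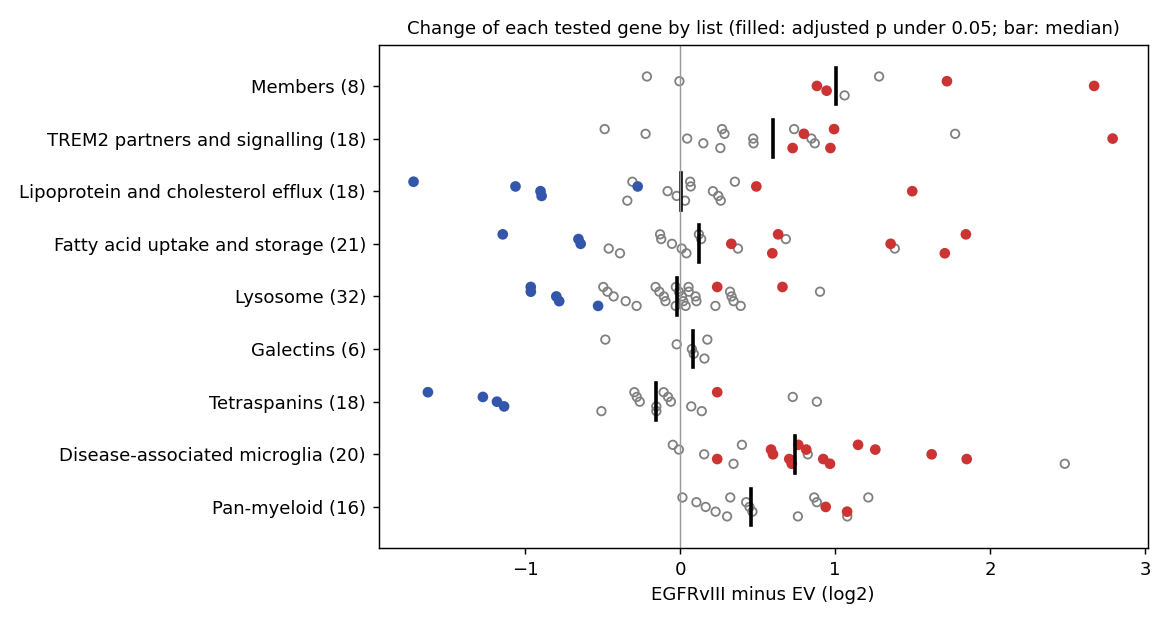
Change of each tested gene, EGFRvIII minus EV on the log2 scale (horizontal axis), by list, with the number tested in parentheses. Filled points have a limma adjusted p under 0.05 (red higher, blue lower), open points do not, and black bars are list medians. The median is 1.00 for the 8 genes described here, 0.74 for other disease-associated microglia genes and -0.02 for lysosomal genes.

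Covariation between tumours was examined within each group of 6. Among the 28 pairs of the 8 genes, r ran from -0.65 to 0.78 in EV tumours, with a median of -0.05 and 13 pairs above 0. In EGFRvIII tumours it ran from -0.94 to 0.97, with a median of 0.16 and 17 pairs above 0. An absolute r over 0.7 was found for 2 pairs in EV and 8 in EGFRvIII tumours. After adjustment over all 56 relations, 0 pairs passed by the exact permutation test, and 3 had an unadjusted p under 0.05, all in EGFRvIII tumours.

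The 3 pairs were Apoe with Lpl, given above, Lgals3 with Ctsb and Apoe with Gpnmb. Lgals3 and Ctsb had r = 0.966 (exact permutation p = 0.00556, 0.311 adjusted) and rho = 0.943 (exact p = 0.0167) in EGFRvIII tumours, and r was 0.860 without the 2 tumours farthest from the median. Both genes were highest in EGFRvIII rat 4 and lowest in rat 2. Apoe and Gpnmb had r = 0.916 (exact permutation p = 0.0194, 0.363 adjusted) and rho = 0.886 (exact p = 0.0333), and 0.814 without the 2 farthest tumours. In EV tumours the r values were -0.45 for Lgals3 with Ctsb and -0.02 for Apoe with Gpnmb, and whether the groups differ was not tested. Trem2 and Tyrobp had r of 0.40 in EV and 0.37 in EGFRvIII tumours (exact permutation p = 0.489 and 0.518).

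**Figure D4:**
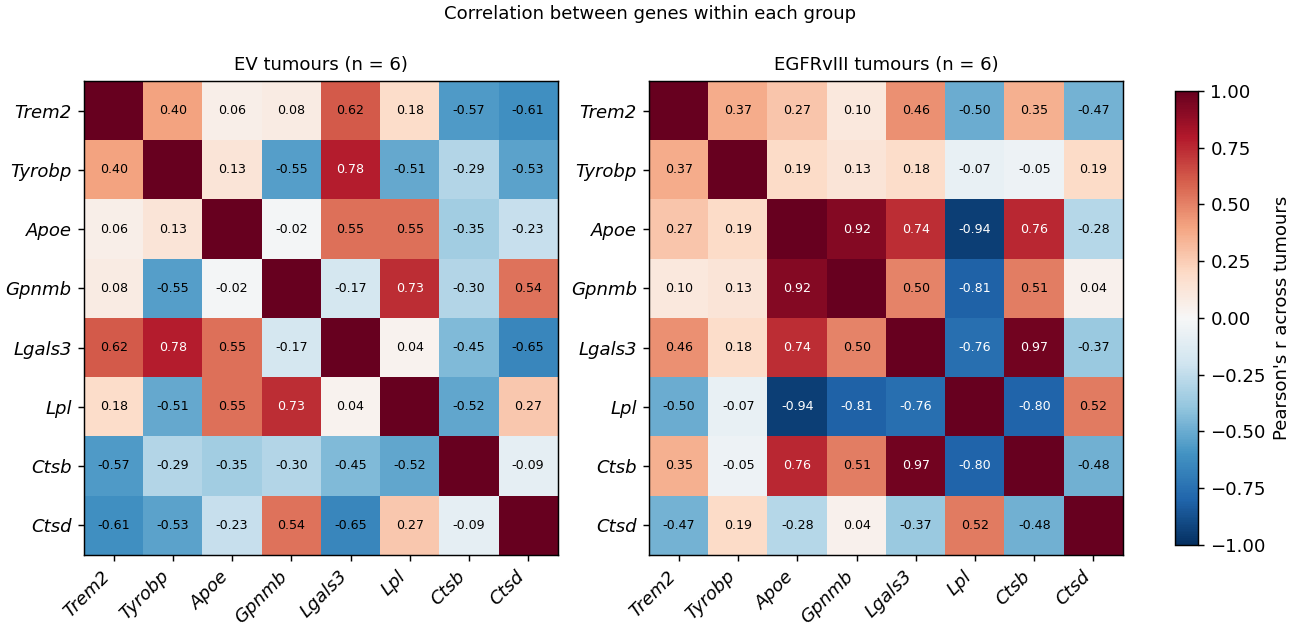
Pearson's r between each pair of the 8 measured genes across 6 EV tumours (left) and 6 EGFRvIII tumours (right), printed in each cell and coloured from -1 (blue) to 1 (red). In EGFRvIII tumours Lpl is negative with Apoe (-0.94), Gpnmb (-0.81), Ctsb (-0.80) and Lgals3 (-0.76), and 0 of 56 relations passed after adjustment.

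The pan-myeloid score was set against each of the 8 genes in the same way, which gave 32 relations with the brain score included, and 0 passed after adjustment. Among EGFRvIII tumours Apoe had an r of 0.942 with the pan-myeloid score (exact permutation p = 0.0125, 0.2 adjusted) and a rho of 0.829 (exact p = 0.0583). For Lpl, r was -0.813 (exact permutation p = 0.0653) and rho was -0.543 (exact p = 0.297). Without the 2 tumours farthest from the median, r was 0.563 for Apoe and 0.056 for Lpl, so both relations rested on those tumours. For Gpnmb, Ctsb and Lgals3, r was 0.844, 0.806 and 0.798 (exact permutation p = 0.0444, 0.05 and 0.0542) and rho was 0.600, 0.886 and 0.943 (exact p = 0.242, 0.0333 and 0.0167). Without the 2 farthest tumours those r values were 0.331, 0.364 and 0.145. The relations of Apoe and Lpl were not particular to the pan-myeloid score. Scores made in the same way had r with Apoe in EGFRvIII tumours of 0.959 for T and NK cell genes and 0.954 for lysosomal genes. For astrocyte genes it was 0.553. With Lpl, r was -0.838 for T and NK cell genes and -0.590 for astrocyte genes, and these values were not tested.

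Genes whose values were most like those of Trem2 after removal of the group means were ranked by Pearson's r over the 12 arrays. The r was 0.911 for Unc50, 0.831 for Ddt and Ndufb11, 0.826 for Cyth2 and Vil1, 0.814 for Cib2, 0.804 for Cisd1 and 0.801 for Ndufa7. These were picked as the highest among the 8383 named genes and were not tested. The ranking ignored the change between groups: Unc50 was called lower in EGFRvIII tumours (-0.57), Vil1 (0.91) and Cib2 (0.84) higher, and the others were not called. Among the genes described here, Lgals3 was nearest (r = 0.576, rank 347 of all named genes), followed by Tyrobp (0.380, rank 1183), and Ctsd was opposite (-0.57). By the same measure the nearest gene was Pycard for Tyrobp (0.967), Serping1 for Apoe (0.978), Ormdl3 for Gpnmb (0.924), Smpdl3a for Lgals3 (0.938), Mmaa for Lpl (0.923), Arg1 for Ctsb (0.929) and Prdm2 for Ctsd (0.941). Ormdl3 was called lower in EGFRvIII tumours (-0.65), Smpdl3a (1.77), Mmaa (0.62) and Arg1 (2.03) higher, and the others were not called.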

How the data were processed

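Signals of 12 tumours, 6 EV and 6 EGFRvIII, came from the authors' non-normalized table. Its intensities, background-subtracted by the authors before they were deposited since some are negative, give 1 value per probe and array. The deposited detection score runs as a fraction from 0 to 1 and was read as 1 minus a detection p-value. The authors' deposited value table looks like quantile-normalized log2 values, and the submitters' processing notes name Partek. The sources used here do not give scanner settings.

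neqc of limma 3.58.1 (R 4.3.3) corrected background from the detection p, added an offset of 16, took log2 and quantile normalized. Kept probes had a detection p under 0.05 on 6 or more arrays (11862 of 22523). The brightest kept probe stood for a gene, which left 11695 genes, 8383 with a symbol. Of all probes, 13793 had 1 symbol in the annotation and 8730 had none. The two-sided test used lmFit and eBayes (trend on, 10 residual degrees of freedom) with Benjamini-Hochberg adjustment across all these genes. The procedure was tested on simulated data. The number of arrays limits precision.

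Correlations were taken within groups, with exact permutation over 720 pairings, two-sided, adjusted over 56 relations between genes and 32 with marker scores. Of 285 list entries, 241 matched by symbol, 1 by an older name and 43 had no match. The genes described, the lists and the tests were chosen with earlier results of these data known. The rule for named genes took all 10 genes, up to 4 called genes of each list by size of change, 8 genes most like Trem2 and 1 most like each other gene. Further list genes, such as Plin2, Scarb2, Cd63 and the uncalled Cd36, were named after their values were seen.

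Rats carry the numbers 1 to 6 in both groups. After removal of group means, same-numbered rats had r of -0.34 to -0.06, and the closest EGFRvIII tumour had the same number for 0 of 6 EV tumours, so tumours were not paired. As alternatives, the background, scaling, filter, probe and variance choices were varied, the authors' log2 values were used, covariates or the rat number as a block were added, and arrays were left out. Correlations, promoter searches and figures used Python 3.11.15 (numpy 2.4.6, pandas 2.3.3, scipy 1.17.1, matplotlib 3.10.9).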

Additional observations from a re-analysis of the deposited data

Results flagged for a closer look

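In 15 of 128 groups of 6 checked, 1 tumour lay farther from the other 5 than Dixon's 95% limit allows, and chance alone flags about 1 group in 20. EV rat 3 accounted for several. Its log2 signal was 9.64 for Lgals3 (others 10.84 to 11.56), 4.69 for Lyn (5.37 to 5.67), 6.77 for Ctse (8.14 to 8.56) and 8.38 for Smpdl3a (9.93 to 10.54). It was high for the matrix genes Ogn at 12.01 (9.20 to 10.12) and Col3a1 at 12.43 (10.51 to 11.16), and its pan-myeloid score was -1.82 (-0.37 to 0.41).

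EGFRvIII rat 3 was high for Tyrobp at 9.05 (8.35 to 8.60) and for Pycard, an inflammasome adaptor, at 9.63 (8.90 to 9.05). EGFRvIII rat 1 was low for Fabp4 at 4.60 (6.16 to 6.98) and high for Sall1 at 6.46 (5.93 to 6.11) and for the brain score at 1.31 (-0.91 to -0.23). EGFRvIII rat 6 was high for Plvap at 8.30 (5.90 to 6.79) and low for Ndufa7 at 6.67 (7.04 to 7.15). EGFRvIII rat 4 was low for Gusb at 9.27 (9.64 to 9.75).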

How the results depend on the processing

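Trem2, Lgals3, Gpnmb and Ctsd were called higher in all 27 alternatives. Leaving out 1 array gave Trem2 changes of 2.54 to 2.77. With the rat number as a replicate block, Trem2 changed by 2.67 ± 0.21 (limma adjusted p = 2.8e-04), and no call among the 8 genes changed. Tyrobp was called in 6 alternatives: without EV rat 1, 3 or 4, with no second background correction, with the stricter filter, and with arrays scaled over kept probes. Genes called higher over the whole array numbered 1299, 768 with median scaling and 2157 with scaling to the median of kept probes, an alternative chosen after seeing the data, which moved the median change of all genes from 0.01 to 0.11. The Apoe change was -0.00 and turned positive with median scaling (0.052), scaling over kept probes (0.24), no second background correction (0.0079), letter order (0.062) or the brain score (0.35) as covariates, and without EV rats 2 and 3 (0.22). Leaving out 1 array gave -0.35 to 0.42. Ctsb turned to 0.11 with scaling over kept probes. Of 42 called list genes named, 30 were called in every alternative that tested them (27, or 26 for Fabp4, which the stricter filter left out), and the alternatives were applied to them after the data had been seen. The other 12 were Btk, Apoc1, Ch25h, Abca1, Mylip, Ctse, Cst3, Spi1, S100a8, Col3a1, Cd63 and Plin2. The count of gene pairs passing stayed at 0 with the authors' values and with median scaling.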

Other observations

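The order of the EGFRvIII tumours by Lpl was shared by many variable genes, chosen here after their values were seen. Of 192 genes with an SD over 1 in EGFRvIII tumours, 16 had an r with Lpl above 0.9 and 29 below -0.9, a description of 6 tumours in which rats 2 and 5 stood apart. Plet1, a surface protein gene, was at 10.99 in rat 2, 10.42 in rat 3 and 10.96 in rat 5 on the log2 scale, and between 6.57 and 7.52 in rats 1, 4 and 6. EV tumours had 4.83 to 6.78. Alox15, the lipoxygenase of eicosanoid synthesis, was at 6.91 and 6.87 in rats 2 and 5, and the other EGFRvIII tumours had 4.56 to 5.23. Naaa, an acid amidase of lysosomes, was at 9.83, 8.30 and 9.16 in rats 2, 3 and 5, and EV tumours had 5.48 to 6.97.

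Several macrophage genes ran the other way. Most tested pan-myeloid genes had a negative r with Lpl in EGFRvIII tumours, but it was -0.276 for Coro1a, 0.052 for Spi1 and 0.753 for Laptm5. The complement gene C1qb was at 10.18 in EGFRvIII rat 2 and 10.45 in rat 5, and between 11.83 and 12.61 in the other EGFRvIII tumours. Folr2, a folate receptor of tissue macrophages, was at 7.08 and 7.23 in rats 2 and 5 and between 9.20 and 10.73 in the others. The protease gene Ctsc was at 8.65 and 8.78 in rats 2 and 5 and between 10.36 and 11.40 in the others. Trem2 was between 9.98 and 10.75 in all 6 tumours, with rats 2 (10.22) and 5 (10.21) above rat 6 (9.98) and below the others. Its r with Lpl in EGFRvIII tumours was -0.496 (exact permutation p = 0.304), and -0.996 without the 2 tumours farthest from the median Trem2 value.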
